A study of Mus musculus with 26 samples.

Results

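The comparison set Sca-1 positive against Sca-1 negative cardiac stromal cells at day 28 after LAD ligation, the tying off of the coronary artery that runs down the front of the heart, an operation that starves part of the ventricle of blood and leaves a scar. Its members were chosen by their labels, the day 28 time point and the gate, which gave 4 positive libraries (codes E2, F2, B4 and B6) and 3 negative ones (E4, B4 and B6), 7 of the 26 libraries of the series. All came from mice of the line B6.129S4-Pdgfratm11(EGFP)Sor/J, given as C57BL/6, with the genotype PDGFRa H2BEGFP+, in which a nuclear green fluorescent protein is made from the Pdgfra locus. Enzymatically dissociated hearts were sorted for cells without CD45, a leukocyte antigen, and without CD31, an endothelial one, that carried the green nuclei, and these were divided by SCA-1. The reporter marks any cell with an active Pdgfra locus, so the gates describe the cells at collection and not the cells from which they arose. The same gates from undamaged hearts (5 positive and 4 negative libraries) and from day 14 entered the fit, and no age, sex or animal number stands in the labels, so every p-value measures the spread between libraries.

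SCA-1 is a small surface protein held in the membrane by a lipid anchor and encoded by Ly6a. In mouse heart and other organs it is used to divide the PDGFRα+ stroma, a population made up largely of fibroblasts, the cells that make and turn over collagen matrix. In several organs, fibroblasts of the outer coat of vessels and of connective tissue sheets are known to carry it together with Dpp4, Pi16, Cd34 and Cd248. After an infarct, fibroblasts multiply, pass through a contractile state and settle in the scar, which by this time is largely formed.

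Depth was 6792786 to 17597620 counts in genes in the positive libraries, against 10737619 to 15601016 counts in the negative ones. Positive library E2 stood apart, with 55.8% of its reads outside genes, against 7.18% to 18.7% in the other 6. Levels are given as CPM, a gene's counts relative to the scaled size of its library. The limit that a count of 0 allows, 3 counts, corresponds to 0.170 to 0.442 CPM on the library size before scaling. Pdgfra, the reporter's gene, was at 805, 718, 565 and 495 CPM in positive libraries E2, F2, B4 and B6, against 499, 620 and 580 CPM in negative libraries E4, B4 and B6, and the gates overlapped. The 2 antigens used to remove other cells were low in both gates: Ptprc (CD45) was at most 0.348 CPM in the positive libraries and at most 1.87 CPM in the negative ones, and Pecam1 (CD31) spanned 4.12 to 14.5 CPM in the positive libraries and 1.80 to 18.6 CPM in the negative ones. The 18 fibroblast identity genes summed to 99536 to 120666 CPM in the positive gate and 104645 to 116773 CPM in the negative gate. Library values below keep the order E2, F2, B4, B6 for the positive gate and E4, B4, B6 for the negative gate.

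Of 13812 genes tested with edgeR's quasi-likelihood test, 60 were higher in the positive gate (0.434% of genes tested) and 22 were lower (0.159%) at an adjusted p under 0.05. The gates did not overlap in any of these 82 genes, against 15% of all genes tested. The differences thus necessarily had the same sign inside both code pairs, B4 and B6. As the genes were called on these same libraries, neither point is separate evidence. The median log2 difference was 1.62 among the genes called higher and -1.63 among those called lower, while over all genes tested it was -0.01. Leaving out 1 library at a time moved the counts widely. Without negative B4, 15 genes were higher and 3 lower, without negative B6 16 and 10, and without negative E4 26 and 18. The same counts were 38 and 15 without positive E2, 71 and 31 without positive F2, 119 and 36 without positive B4, and 50 and 20 without positive B6. Of the 79 called genes that carry a gene name rather than a clone or model number, 14 were called whichever of the 7 libraries was left out. The 12 higher ones were Sema3c, Tmem100, Duoxa1, Duox1, Cmah, Dpp4, Serpinb9b, Ackr3, Cd55, Cd248, Efhd1 and Fam126a, and the 2 lower ones were Msc and Notch3. With limma-voom in place of edgeR 32 of the 82 calls remained, and of these 14 genes Duox1 (adjusted p = 0.179), Cmah (0.125), Serpinb9b (0.122) and Duoxa1 (0.0619) were not called. With the code as a replicate block, 61 genes were higher and 38 lower, and 42 of the 82 calls remained. In that fit E2, F2 and E4, which have no partner library, carry no weight. Its day 28 difference thus comes from pairs B4 and B6 alone, with fewer residual degrees of freedom. Values given below with the block are not a check on all the day 28 libraries.

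**Figure D1:**
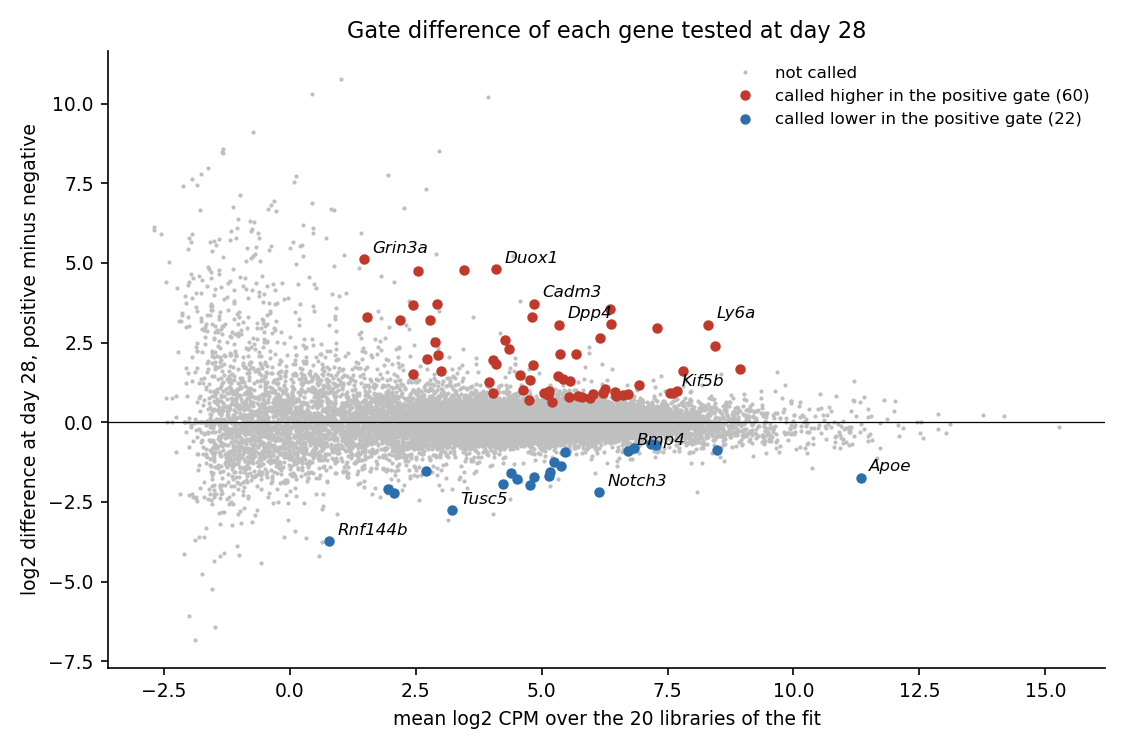
Each dot is 1 of the 13812 genes tested, placed by its mean log2 CPM over the 20 libraries of the fit (x) and its log2 difference at day 28, positive minus negative (y). Red marks the 60 genes called higher and blue the 22 called lower in the positive gate at an adjusted p under 0.05; most of the large differences at the low end of the x axis are grey.

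Ly6a itself stood at 290, 326, 407 and 385 CPM in the positive gate, against 25.8, 43.4 and 56.8 CPM in the negative gate. No negative library came near a positive one, and the gate on the protein was matched by its messenger in all 7 libraries. The difference was 3.07 ± 0.57 on the log2 scale (SE, edgeR adjusted p = 0.0129), an 8.38-fold difference, and it defines the gate rather than adding to it. Ly6c1, a neighbour of the same family, was at 52.1, 66.3, 119 and 84.9 CPM in the positive gate, against 9.47, 4.48 and 6.78 CPM in the negative gate (3.55 ± 0.66, adjusted p = 0.0129). Both lie on chromosome 15 of GRCm38, Ly6a (ENSMUSG00000075602.10) at 74994877 to 74998031 and Ly6c1 (ENSMUSG00000079018.10) at 75044018 to 75048830, both on the minus strand, and reads of such related genes can be counted for one another. Of the 10 Ly6 family members tested, these 2 were called, and the median of the 10 was 0.14. With only 3 negative libraries the adjusted p depended on each of them: it was 0.0918, 0.106 and 0.0580 for Ly6a without negative E4, B4 and B6, and Ly6c1 was not called without negative B4 or B6 (highest adjusted p = 0.119).

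Genes of the adventitial stroma formed the largest named group among those higher in the positive gate. Of 28 listed genes, 8 were called higher and none lower, against 0.434% and 0.159% of all genes tested. Of the 28 log2 differences, 27 were above 0, against 48.8% over all genes, and their median was 0.93 against -0.01. The list was chosen with earlier results of these data known and is not independent evidence of its direction. Its summed level was 11610 to 16976 CPM in the positive libraries, against 7994 to 8934 CPM in the negative ones, so the gates did not overlap. In bulk libraries fewer cells of a type and less RNA per cell cannot be told apart.

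Sema3c encodes a secreted semaphorin that signals through neuropilins and plexins, and it had the smallest adjusted p of all 13812 genes. It was at 335, 189, 208 and 254 CPM in the positive gate, against 33.9, 23.7 and 36.8 CPM in the negative gate. The lowest positive library held several times the level of the highest negative one, and the difference was 2.97 ± 0.26 (adjusted p = 7.11e-06). Dpp4, a membrane peptidase that trims the ends of chemokines and incretins, was at 109, 31.6, 72.3 and 62.1 CPM in the positive gate, against 4.64, 6.07 and 13.7 CPM in the negative gate (3.07 ± 0.42, adjusted p = 0.0011). Cd248, or endosialin, a stromal glycoprotein, was at 183, 399, 685 and 450 CPM, against 67.0, 90.2 and 87.5 CPM (2.40 ± 0.38, adjusted p = 0.00422). Within the positive gate these genes did not rise and fall together: E2 was the highest library for Sema3c and Dpp4 and the lowest for Cd248.

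Efhd1, a calcium-binding protein of mitochondria, was at 43.0, 78.3, 208 and 112 CPM in the positive gate, against 8.19, 15.7 and 14.8 CPM in the negative gate (3.09 ± 0.51, adjusted p = 0.00515). Cd55, which shields cells from complement by speeding the decay of its convertases, was at 336, 259, 330 and 335 CPM, against 93.9, 99.6 and 114 CPM (1.62 ± 0.24, adjusted p = 0.00239), so all positive libraries but F2 were nearly level. Limch1, an actomyosin-binding protein, was at 41.0, 48.3, 53.4 and 36.7 CPM in the positive gate, against 17.3, 6.64 and 6.71 CPM in the negative gate (2.15 ± 0.37, adjusted p = 0.00743). Its negative library E4 lay above the other two, and it was not called without negative B4 or B6 (highest adjusted p = 0.0965). Opcml, an adhesion molecule of the immunoglobulin family best known from neurons, was low, at 4.92, 2.87, 2.98 and 6.73 CPM against 0.182, 0.217 and 0.968 CPM (3.20 ± 0.69, adjusted p = 0.0321, and 0.195 with the replicate block). It was not called without positive E2 or B6 or negative E4 or B4 (at most 0.234).

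Other genes usually named with these cells did not pass at day 28. Pi16, a secreted peptidase inhibitor, was at 1277, 2681, 2132 and 1811 CPM in the positive gate, against 1434, 889 and 907 CPM in the negative gate, and negative E4 lay above positive E2 (0.88 ± 0.29, adjusted p = 0.174, and 0.0095 with the replicate block). Thy1, a lipid-anchored glycoprotein, was at 36.3, 44.2, 102 and 73.5 CPM, against 15.7, 22.7 and 19.6 CPM, without overlap (1.72 ± 0.42, adjusted p = 0.0642, and 0.00019 with the block). Cd34, a sialomucin, was at 2101, 2410, 2704 and 2013 CPM in the positive gate, against 1182, 1360 and 1399 CPM in the negative gate (0.81 ± 0.23, adjusted p = 0.108). Mfap5, a microfibril protein, was at 1269, 1298, 1339 and 1210 CPM, against 978, 653 and 769 CPM (0.68 ± 0.17, adjusted p = 0.0796). For the last 2 the gates did not overlap, yet neither was called with or without the block. With the block, 11 of the 28 listed genes were called higher. In undamaged hearts the same edgeR fit called 17 of the 28 higher, against 1.65% of all genes tested, and the median of the 28 was 1.92. Pi16, Thy1, Cd34 and Mfap5 were among the genes called there, at 1.89, 2.27, 1.07 and 1.54 (adjusted p = 0.000302, 0.00124, 0.0044 and 8.2e-06). For none of these 4 was the change in the gate difference called (adjusted p = 0.907 or above).

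A pair of receptors that take up chemokines was called higher. Ackr3, which removes CXCL12 from its surroundings, was at 645, 526, 898 and 747 CPM in the positive gate, against 160, 233 and 275 CPM in the negative gate (1.66 ± 0.23, adjusted p = 0.0011). Ackr2, a scavenger of inflammatory CC chemokines, was at 14.2, 28.1, 63.0 and 26.8 CPM, against 1.82, 5.99 and 2.14 CPM (3.31 ± 0.57, adjusted p = 0.00732), and was not called without negative E4 or B6 (highest adjusted p = 0.0823). For both, library B4 was the highest of the positive gate. Ackr1, which binds chemokines on red cells and small veins, was at 2.53, 1.87, 4.75 and 7.31 CPM in the positive gate, against 0.455, 0.361 and 0.968 CPM in the negative gate, and missed the threshold (2.77 ± 0.65, adjusted p = 0.0582). It was called only without positive F2. Ackr2 and Ackr3 were the only 2 of the 36 chemokine and cytokine genes tested that were called, and the median of the 36 was 0.17. Of 20 complement genes tested, Cd55 was called. Cfb, a protease of the alternative complement pathway, spread from 17.7 to 226 CPM in the positive gate and from 5.92 to 32.6 CPM in the negative gate (adjusted p = 0.281). Inside the pairs it was higher in the positive gate by 2.14 in B4 and 2.78 in B6 on the log2 scale, and with the block its adjusted p was 0.00253.

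Tmem100, a small membrane protein known as a target of BMP signalling in endothelium, was at 112, 88.7, 120 and 125 CPM in the positive gate, against 16.1, 13.4 and 23.3 CPM in the negative gate (2.66 ± 0.31, adjusted p = 0.000305). Cadm3, a nectin-like adhesion molecule of neurons, was at 28.7, 25.9, 45.4 and 80.4 CPM, against 2.46, 3.61 and 4.08 CPM (3.72 ± 0.60, adjusted p = 0.00479, and 0.0549 without negative B4). Tmem100 varied little among the 4 positive libraries, whereas Cadm3 in B6 was well above the other positive libraries. Islr2, a leucine-rich repeat protein of growing axons, was at 25.0, 34.6, 45.7 and 35.7 CPM in the positive gate, against 16.8, 9.31 and 11.8 CPM in the negative gate (1.48 ± 0.32, adjusted p = 0.031, and 0.0793 with the block). Adgrg2, an adhesion receptor known from the epididymis, was at 51.0, 34.0, 37.6 and 30.1 CPM, against 12.5, 11.0 and 9.41 CPM (1.80 ± 0.36, adjusted p = 0.0227, and 0.119 with the block). Islr2 was not called without either library of gate pairs B4 and B6 (at most 0.234), nor Adgrg2 without positive E2 or any 1 negative library (at most 0.13). In the 40 axon guidance genes tested Sema3c was the one call, with 18 differences above 0 and 22 below, and in the 24 adhesion genes there was also 1 call. Ntn4, a laminin-related netrin, was at 136, 145, 142 and 117 CPM in the positive gate and 63.3, 69.5 and 68.7 CPM in the negative gate, without overlap but not called (adjusted p = 0.0753).

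**Figure D2:**
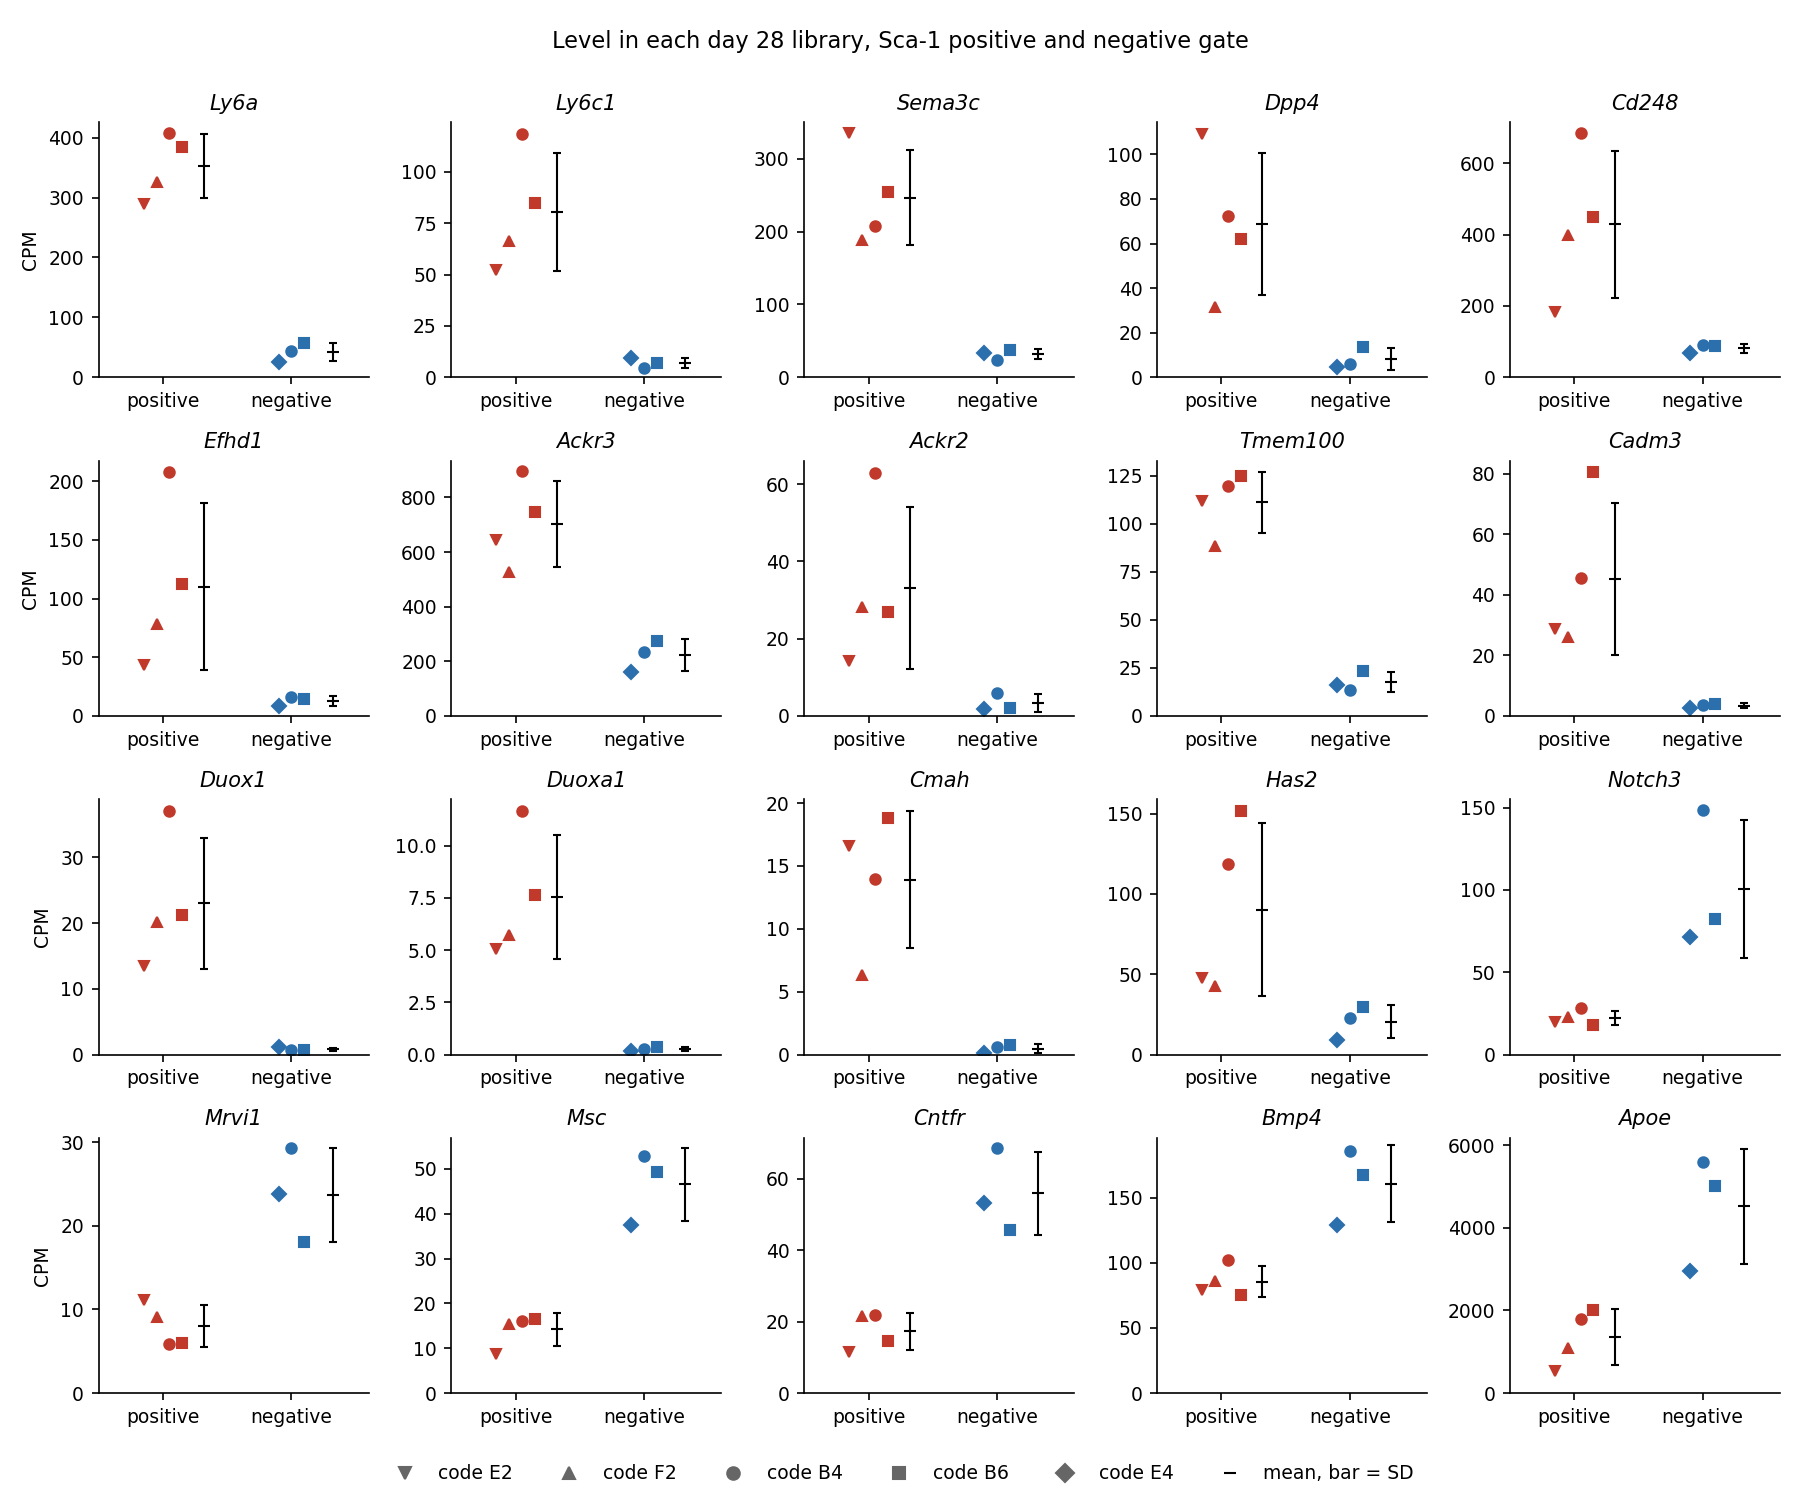
CPM of 20 genes in each day 28 library, with the positive gate left (red) and the negative gate right (blue) and a marker for each library code; black bars give the mean ± SD (n = 4 positive, n = 3 negative), and each y axis starts at 0. The first 14 genes lie higher in the positive gate and the last 6, from Notch3 to Apoe, lie lower, with no overlap in any panel.

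A pair of neighbouring genes of hydrogen peroxide production was among the largest differences. Duox1, an enzyme that makes hydrogen peroxide and is best known from thyroid and airway, was at 13.5, 20.2, 37.0 and 21.2 CPM in the positive gate, against 1.09, 0.722 and 0.692 CPM in the negative gate (4.80 ± 0.72, adjusted p = 0.00239, and 0.179 with limma-voom, where the call was lost, as it was in limma-voom with the block). Duoxa1, the maturation factor that Duox1 needs to leave the endoplasmic reticulum, was at 5.06, 5.74, 11.7 and 7.66 CPM, against 0.182, 0.289 and 0.346 CPM (4.74 ± 0.59, adjusted p = 0.000654, and 0.0619 with limma-voom). The 4 positive libraries had the same order for both genes, E2 lowest and B4 highest. That order was not particular to this pair: Ly6c1, Efhd1, Cd248, Thy1, Chst1, Stmn4 and Serpinb9b had it too. The counts behind the negative gate were few, 32 for Duox1 and 11 for Duoxa1 over 3 libraries, against 1146 and 366 over the 4 positive libraries. No other one of the 8 oxidase genes tested was called, the median of the 8 was 0.10, and Duoxa2, Nox3 and Noxa1 were at 0 in all 7 libraries.

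The gene pair is printed here with the 250 bases before each start. The 2 genes were both called higher and face away from each other on chromosome 2, with annotated starts 1942 bases apart. Sequences are from RefSeq (GRCm38.p6), each written in the direction of its gene, with GC boxes (GGGCGG, or CCGCCC on the other strand) in capitals. Duox1 (ENSMUSG00000033268.8) reads on the plus strand from 122315672, and its window is chr2:122315422-122315671. Duoxa1 (ENSMUSG00000027224.14) reads on the minus strand from 122313730, and its window is chr2:122313731-122313980.
Duox1: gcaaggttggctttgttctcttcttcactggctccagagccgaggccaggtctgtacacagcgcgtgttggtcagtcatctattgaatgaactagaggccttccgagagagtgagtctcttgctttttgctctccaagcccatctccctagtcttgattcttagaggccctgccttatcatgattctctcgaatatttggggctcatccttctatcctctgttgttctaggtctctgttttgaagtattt
Duoxa1: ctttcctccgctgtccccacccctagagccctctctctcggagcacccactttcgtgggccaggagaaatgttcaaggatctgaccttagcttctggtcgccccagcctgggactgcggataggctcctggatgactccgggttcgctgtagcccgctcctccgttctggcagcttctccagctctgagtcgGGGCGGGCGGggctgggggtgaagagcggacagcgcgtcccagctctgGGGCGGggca
The Duoxa1 window had 3 GC boxes, the first 2 overlapping, and a GC content of 65.6%. The Duox1 window had none and a GC content of 47.6%. Neither held TATAAA or TTTATA. Among 32851 RefSeq windows of the same length, 32.74% held a GC box and 12.37% a TATA motif. The 2 windows do not overlap and share neither motif nor base composition. The 2 genes do not overlap in GENCODE M21. The annotation and strand setting of the counting are not given in the sources used here, and sharing of reads between the genes was not examined.

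Cmah, which turns N-acetylneuraminic acid into N-glycolylneuraminic acid and is lost in humans, was at 16.6, 6.32, 13.9 and 18.8 CPM in the positive gate, against 0.0910, 0.578 and 0.761 CPM in the negative gate (4.78 ± 0.69, adjusted p = 0.00193, and 0.125 with limma-voom). Has2, the hyaluronan synthase needed for the embryonic heart cushions, was at 47.8, 42.4, 119 and 152 CPM, against 9.01, 23.0 and 29.5 CPM (2.13 ± 0.43, adjusted p = 0.0234). Its 2 paired libraries were well above E2 and F2 in the positive gate, and it was not called without any single negative library or without positive B6 (highest adjusted p = 0.118). Chst1, a sulfotransferase for keratan sulfate, was at 9.98, 17.6, 29.4 and 19.8 CPM in the positive gate, against 3.91, 6.43 and 5.81 CPM in the negative gate (1.84 ± 0.38, adjusted p = 0.0292). It was not called without any 1 negative library or without positive B4 or B6 (at most 0.127). Car8, a carbonic anhydrase relative without the enzyme activity, was at 26.3, 14.4, 22.0 and 23.3 CPM, against 3.28, 4.33 and 3.18 CPM (2.57 ± 0.47, adjusted p = 0.0103, and up to 0.0903 without 1 negative library).

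Among the other large differences, Serpinb9b, an intracellular protease inhibitor, was at 4.08 to 9.31 CPM in the positive gate and 0.182 to 0.692 CPM in the negative gate (3.72 ± 0.51, adjusted p = 0.0011, and 0.122 with limma-voom). Wnt10b, a Wnt ligand known from fat and bone, was at 4.36, 11.1, 15.5 and 16.5 CPM, against 1.27, 1.44 and 1.11 CPM (3.22 ± 0.58, adjusted p = 0.0103). Stmn4, a stathmin that binds tubulin, was at 3.37 to 12.5 CPM and 0.546 to 0.650 CPM (3.67 ± 0.73, adjusted p = 0.0227, and 0.08 with the block). In all of these the negative gate was at or below 1.44 CPM. Anxa8, a membrane-binding annexin, was at 24.7, 43.7, 53.6 and 28.7 CPM in the positive gate, against 7.65, 7.22 and 8.16 CPM in the negative gate (2.30 ± 0.47, adjusted p = 0.0248). Mcf2l, an exchange factor for small GTPases, was at 6.39 to 8.74 CPM and 0.722 to 2.46 CPM (2.53 ± 0.42, adjusted p = 0.00562). Wnt10b, Stmn4 and Anxa8 were not called without any 1 of the 3 negative libraries, and Mcf2l was not called without negative B4 or B6, with adjusted p up to 0.0903, 0.134, 0.158 and 0.0709.

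A further group of called genes had moderate differences. Fam126a, or hyccin, which helps hold a lipid kinase at the plasma membrane, was at 59.9, 48.3, 57.0 and 59.8 CPM in the positive gate, against 19.7, 22.5 and 24.1 CPM in the negative gate (1.35 ± 0.21, adjusted p = 0.00366). It was among the most even of all called genes within each gate and was called in every fit without 1 library. Arhgap20, a GTPase-activating protein, was at 23.6, 15.3, 15.4 and 13.8 CPM, against 4.37, 5.05 and 3.73 CPM (1.95 ± 0.32, adjusted p = 0.00479, and 0.0525 without negative B6). Pde8a, which breaks down cyclic AMP, was at 32.6, 27.9, 39.8 and 34.2 CPM, against 8.92, 13.5 and 17.6 CPM (1.33 ± 0.25, adjusted p = 0.0169, and 0.0752 with the block). Neither had an overlap between the gates, and Pde8a was not called without negative E4 or B4 (at most 0.112). Ablim1, an actin-binding protein, was at 342, 240, 267 and 230 CPM in the positive gate, against 98.2, 148 and 159 CPM in the negative gate (1.00 ± 0.21, adjusted p = 0.0306, and 0.195 with the block). Ston2, an adaptor of endocytosis, was at 65.5, 66.6, 60.5 and 42.5 CPM, against 20.1, 27.7 and 24.7 CPM (1.28 ± 0.22, adjusted p = 0.00732). Ablim1 was not called without positive E2 or any 1 negative library (at most 0.142), nor Ston2 without negative E4 or B6 (at most 0.0596). The volume-regulated anion channel subunit Lrrc8b and the dystrobrevin Dtna, which joins the dystrophin complex, stayed below 10 CPM in all 7 libraries, with differences of 1.99 ± 0.41 (adjusted p = 0.0288) and 1.51 ± 0.34 (adjusted p = 0.046) and adjusted p of 0.43 and 0.248 with the block. Gas7, a membrane-bending protein, was at 87.3 to 151 CPM in the positive gate and 44.4 to 61.8 CPM in the negative gate (1.17 ± 0.25, adjusted p = 0.0308). Clip4, Fsd1l, Nhsl1, Ammecr1 and Fam167a had differences of 1.00, 1.28, 1.46, 1.61 and 2.13. All but Gas7 and Clip4 of these 6 lost their call with the block, at an adjusted p of 0.259 for Fsd1l, 0.112 for Nhsl1, 0.248 for Ammecr1 and 0.0934 for Fam167a. Each of the 6 was not called without negative B4 or B6, among other libraries (at most 0.234).

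Grin3a, a subunit of neuronal glutamate receptors, had the largest fitted difference of the called genes and the thinnest base. It was at 2.53, 2.80, 2.22 and 0.580 CPM in the positive gate, against 0.182, 0 and 0 CPM in the negative gate. The counts were 97 over the 4 positive libraries and 2 over the 3 negative ones, a ratio of 42.8 per count in genes with a 95% exact interval of 11.5 to 358 for counting error only. The fitted difference of 5.11 ± 1.00 (adjusted p = 0.0203) depends on how the model treats counts near 0: it was 8.32 without negative E4. The adjusted p was 0.0573 with the block and at most 0.151 without negative B4 or B6, where the call was lost.

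Differences of under 1 on the log2 scale made up 19 of the 60 genes called higher. Rap1a, a Ras relative that acts on integrins, was at 98.1, 82.9, 106 and 117 CPM in the positive gate, against 51.1, 58.3 and 60.6 CPM in the negative gate (0.83 ± 0.18, adjusted p = 0.0321). Shoc2, a scaffold between Ras and Raf, was at 93.7, 61.0, 78.3 and 65.6 CPM, against 40.1, 43.3 and 48.3 CPM (0.76 ± 0.16, adjusted p = 0.0302). Both were higher in the positive library of both code pairs, Rap1a by 0.85 and 0.94 in B4 and B6, and Shoc2 by 0.85 in B4 but 0.44 in B6. Rock2, a kinase of actomyosin tension, was at 356, 252, 186 and 215 CPM in the positive gate, against 143, 116 and 141 CPM in the negative gate (0.92 ± 0.21, adjusted p = 0.0492). Kif5b, a kinesin motor chain, was at 350, 242, 187 and 214 CPM, against 132, 114 and 144 CPM (0.93 ± 0.20, adjusted p = 0.0321). In both of these E2 was the highest library by far and B4 the lowest of the positive gate. The calls of Rap1a, Shoc2, Rock2 and Kif5b were lost without positive E2 or any 1 negative library, those of Rap1a and Rock2 also without positive B6, and that of Rock2 without positive F2 (at most 0.158, 0.178, 0.31 and 0.234). The others included Exoc5 of the exocyst, Rab23 of vesicle traffic, Ap3m1 of an endosomal coat, the nuclear import factor Kpna3, the phospholipase Pla2g4a and Mr1, which presents vitamin metabolites to T cells, with Far1, Ino80c, Kctd9, Nova1, Pno1 and Sh3kbp1, at log2 differences between 0.63 and 0.97.

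Transcript length moved with these calls. Genes were divided into 4 equal classes by their longest annotated transcript, and in positive E2 the median deviation from the gene mean went up with length, at -0.29, -0.10, 0.05 and 0.28 on the log2 scale. Positive F2 had the same order, at -0.13, -0.02, 0.04 and 0.17. The other 5, of both gates, ran the opposite way within 0.07 to 0.11 in the shortest and -0.05 to -0.12 in the longest class. The gene mean was taken over all day 28 libraries, E2 and F2 included, which itself pushes the other 5 the opposite way. The median gate difference of all genes was -0.16, -0.07, 0.02 and 0.18 in the 4 classes, and 8, 13, 11 and 28 genes were called higher in them, against 10, 3, 5 and 4 called lower. Of the 19 genes called with under 1 log2, 9 lay in the longest class and E2 was the highest positive library for 13. Only 4 of the 19 were called without E2, 3 without E2 and F2, and 2, Exoc5 among them, with the replicate block, while 16 were called after a trend with length had been taken out of each library. Inside the pairs, which hold neither E2 nor F2, their median difference was 0.79 in B4 and 0.74 in B6 and the lowest was 0.50 and 0.44. The pairs entered the fit that called these genes, so the sign and size of these differences are not separate evidence. Of the 41 genes higher by 1 or more, 19 lay in the longest class and E2 was the highest positive library for 12. Of these 41, 31 were called without E2, 28 without E2 and F2, and 40 with the length trend removed. Without negative E4, B4 and B6 in turn, 21, 15 and 15 of the 41 were called. The part of length in these results was not tested beyond these values.

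**Figure D3:**
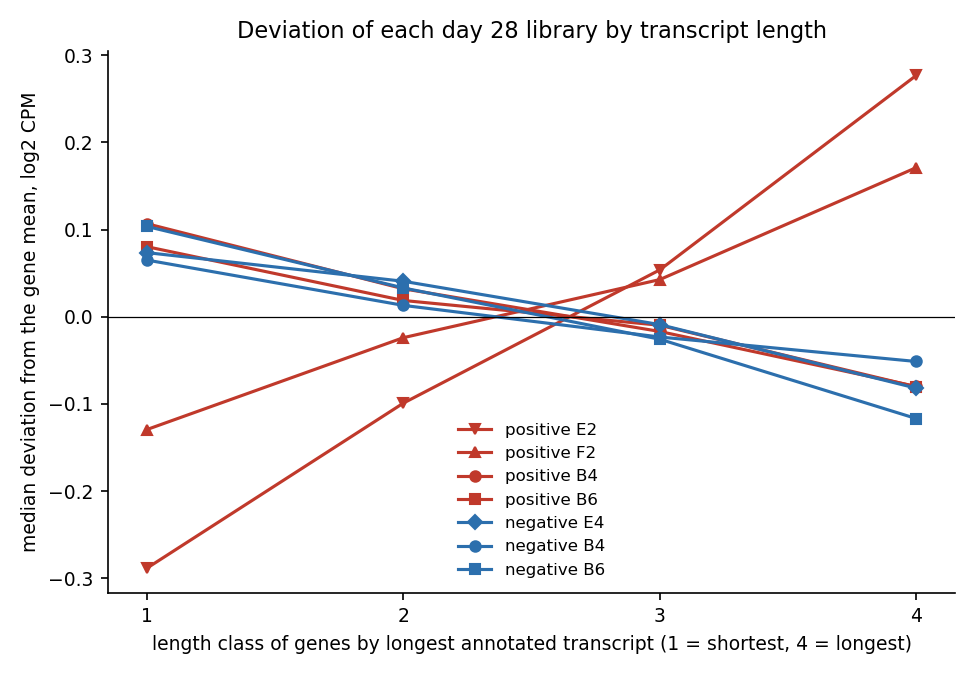
Median deviation of each day 28 library from the gene mean (log2 CPM, y) in 4 classes of genes by longest annotated transcript (x), red for the positive and blue for the negative gate. Positive E2 and F2 climb from -0.29 and -0.13 in the shortest to 0.28 and 0.17 in the longest class, and the other 5 lines descend slightly. The gene mean includes E2 and F2, which itself pushes the other lines the opposite way.

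On the lower side, Notch3, a receptor of mural cells of small arteries and capillaries, led the abundant genes. It was at 19.7, 22.7, 28.1 and 18.1 CPM in the positive gate, against 71.2, 149 and 82.4 CPM in the negative gate (-2.18 ± 0.34, adjusted p = 0.00366). Every negative library lay far above every positive one, and B4 was the highest of each gate. Of the 17 mural marker genes tested it was the only call. Of their differences 14 were below 0, while 48.8% of all genes tested lay above 0. The median of the 17 was -0.40 against -0.01 over all genes. The list summed to 645 to 946 CPM in the positive gate, against 948 to 1373 CPM in the negative gate, and none of its members was at 0 in all libraries. Heyl, a target of Notch signalling, was at 143, 224, 174 and 107 CPM in the positive gate, against 296, 385 and 245 CPM in the negative gate, without overlap but not called (-0.93 ± 0.28, adjusted p = 0.127, and 0.00914 with the block). Ndufa4l2, a mitochondrial protein of pericytes, was at 27.4 to 53.6 CPM and 65.6 to 90.0 CPM (adjusted p = 0.108). Notch3 was also the only call among 16 Notch pathway genes, of which 11 were below 0. The part of mural cells in this difference was not tested.

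Mrvi1, a substrate of the cGMP-dependent kinase that restrains calcium release in smooth muscle, was at 11.1, 9.05, 5.83 and 6.03 CPM in the positive gate, against 23.8, 29.2 and 18.1 CPM in the negative gate (-1.58 ± 0.27, adjusted p = 0.00584, and 0.0709 without negative B4). In the same list of cGMP and potassium channel genes Kcnt2, a sodium-activated potassium channel, was the other call, in the opposite direction, at 138, 108, 63.5 and 68.6 CPM, against 53.0, 40.1 and 43.0 CPM (1.06 ± 0.24, adjusted p = 0.0454, and 0.12 with the block). Kcnt2 was not called without positive E2 or F2 or any 1 negative library (at most 0.275). Its paired positive libraries were close to each other and far below E2, and without E2 and F2 its difference was 0.54 (adjusted p = 0.432). Kcne4, a subunit that damps potassium currents, was at 41.9 to 75.1 CPM in the positive gate and 97.8 to 117 CPM in the negative gate and missed the threshold (adjusted p = 0.0553), which it passed without positive B4 or B6. None of the 15 contractile genes tested was called in either direction, and their summed level overlapped, at 903 to 1072 CPM in the positive gate and 846 to 1081 CPM in the negative gate.

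Msc, or musculin, a repressor of the basic helix-loop-helix family, was at 8.71, 15.4, 16.1 and 16.6 CPM in the positive gate, against 37.4, 52.9 and 49.3 CPM in the negative gate (-1.70 ± 0.26, adjusted p = 0.00239). It was the only call among 41 transcription factors. Hic1, a repressor used as a marker of stromal progenitors, was at 41.3, 74.5, 62.4 and 52.8 CPM, against 109, 88.6 and 53.4 CPM, and the gates overlapped (-0.53 ± 0.34, adjusted p = 0.488). Bmp4, a ligand of bone morphogenetic protein signalling, was at 79.0, 85.7, 102 and 75.2 CPM, against 129, 186 and 168 CPM (-0.91 ± 0.15, adjusted p = 0.00515, and 0.0709 without negative B4). No other one of 36 TGF-beta and BMP pathway genes was called. Wnt6, a Wnt ligand, was low, at 0.703, 1.29, 1.84 and 1.86 CPM in the positive gate, against 3.28, 7.65 and 7.54 CPM in the negative gate (-2.09 ± 0.40, adjusted p = 0.0169, and 0.256 with the block) and was not called without negative B4 or B6 (at most 0.121). The 2 called Wnt pathway genes of 31 tested, Wnt10b and Wnt6, are thus both ligands and went in opposite directions. Wif1, a secreted Wnt inhibitor, was near the limit of 3 counts, at most 0.232 CPM in the positive gate and 0.455 CPM in the negative gate. Mdk, the heparin-binding growth factor midkine, was at 10.5, 31.7, 31.9 and 34.8 CPM, against 77.5, 63.5 and 69.4 CPM (-1.36 ± 0.29, adjusted p = 0.0306, and not called without any 1 negative library, at most 0.126). Positive E2 was far below the other 3 positive libraries for Mdk, and without E2 and F2 the adjusted p was 0.0854.

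A neuropeptide and a cytokine receptor subunit were lower as well. Nmb, which encodes the bombesin-like peptide neuromedin B, was at 16.4, 16.7, 29.5 and 29.0 CPM in the positive gate, against 47.1, 77.8 and 76.8 CPM in the negative gate (-1.55 ± 0.30, adjusted p = 0.0175, at most 0.118 without positive E2 or negative B4 or B6, where the call was lost). Cntfr, the binding subunit of the receptor for ciliary neurotrophic factor, was at 11.4, 21.5, 21.8 and 14.6 CPM, against 53.2, 68.5 and 45.7 CPM (-1.67 ± 0.27, adjusted p = 0.00492, and 0.0575 without negative B4). Blnk, an adaptor best known from B cells, was at 9.70, 7.90, 12.9 and 6.27 CPM in the positive gate, against 25.2, 44.5 and 25.1 CPM in the negative gate (-1.77 ± 0.35, adjusted p = 0.0198, at most 0.18 without positive E2 or B6 or negative B4, where the call was lost). The B cell marker Ms4a1 was at 0 in all 7 libraries, and the lymphoid list summed to at most 0.580 CPM in the positive gate and 1.52 CPM in the negative gate.

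Apoe, which carries lipid between cells, was the only call among 30 lipid handling genes. It was at 532, 1091, 1799 and 2005 CPM in the positive gate, against 2954, 5592 and 5009 CPM in the negative gate (-1.74 ± 0.34, adjusted p = 0.0203). Within each gate its letter-coded libraries were lower than B4 and B6, and it was not called without negative B4 or B6 (highest adjusted p = 0.132) or without positive E2 and F2 (0.12). Atp1b2, a beta chain of the sodium pump, was at 4.22, 10.8, 13.8 and 4.53 CPM in the positive gate, against 26.4, 43.0 and 30.1 CPM in the negative gate (-1.96 ± 0.35, adjusted p = 0.0103). Library B4 was the highest in each gate. Pygm, the muscle glycogen phosphorylase, was at 19.4 to 24.7 CPM in the positive gate and 39.6 to 66.6 CPM in the negative gate (-1.23 ± 0.26, adjusted p = 0.0306). Tusc5, a regulator of glucose transporter traffic in fat cells, was at 1.04 to 2.03 CPM and 8.10 to 14.9 CPM (-2.76 ± 0.52, adjusted p = 0.0168, and 0.0759 with the block). Slc13a4, a sulfate carrier, was at 3.51 to 7.68 CPM and 15.5 to 17.2 CPM (-1.51 ± 0.32, adjusted p = 0.0291, and 0.245 with the block). Atp1b2, Pygm, Tusc5 and Slc13a4 lost their call without negative B4, where the adjusted p was at most 0.258. Pygm and Slc13a4 also lost it without positive E2 or B6 or negative B6, Pygm without positive F2, and Slc13a4 without negative E4. Of 9 fat cell markers, Adipoq, Cidec, Lep and Ucp1 were at 0 in all 7 libraries, and 3 were tested, of which 2 lay above 0 and none was called. The list summed to 1.04 to 2.01 CPM in the positive gate and 0.553 to 2.18 CPM in the negative gate.

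The other called genes were Megf6, Rnf144b, Tmem98, Tmem204 and Amotl2 on the lower side. Tmem98, a membrane protein, was at 37.9, 42.6, 42.1 and 51.8 CPM in the positive gate, against 91.3, 69.3 and 86.8 CPM in the negative gate (-0.92 ± 0.19, adjusted p = 0.0247, and 0.0934 with the block). It was not called without positive E2 or any 1 negative library (at most 0.122). Amotl2, which holds the co-activator YAP at cell junctions, was at 91.6 to 114 CPM and 151 to 197 CPM (-0.68 ± 0.14, adjusted p = 0.0288, and 0.132 with the block), and was not called without positive E2 or B4 or any 1 negative library (at most 0.142). Rnf144b, a ubiquitin ligase, rested on 4 counts over the positive gate and 50 over the negative gate, and neither Rnf144b nor Megf6, an extracellular protein with epidermal growth factor repeats, was called in any fit without 1 library (at most 0.126 and 0.195) or with the block (0.389 and 0.142). Tmem204, a membrane protein of endothelial junctions, was at 86.6 to 105 CPM in the positive gate and 142 to 177 CPM in the negative gate (-0.82 ± 0.17, adjusted p = 0.0321). It was called in none of the fits without 1 library but that without positive B4 (at most 0.211), and had an adjusted p of 0.099 with the block.

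Matrix genes, the main product of scar fibroblasts, gave no call. Over all genes tested, 48.8% of the differences lay above 0 and the median was -0.01. Of 30 collagen genes tested, 22 were lower in the positive gate and none passed, with a median of -0.28. Of 23 matrifibrocyte genes, which mark the late scar, 21 were below 0 with a median of -0.86 and none passed. The summed levels overlapped for both, at 39642 to 53344 CPM in the positive gate and 44804 to 61402 CPM in the negative gate for collagens. Fmod, a small proteoglycan that binds collagen fibrils, was at 173, 398, 135 and 94.0 CPM in the positive gate, against 1817, 458 and 492 CPM in the negative gate (-2.20 ± 0.57, adjusted p = 0.081, and 0.0112 with the block). Cilp2, a cartilage matrix protein, was at 3.94, 21.3, 4.56 and 4.41 CPM, against 140, 25.5 and 26.4 CPM (-2.88 ± 0.72, adjusted p = 0.0736). Negative E4 stood far above B4 and B6 for both of these. In contrast, Aspn, another small proteoglycan, was at 2657, 1353, 1275 and 1450 CPM in the positive gate, against 962, 559 and 742 CPM in the negative gate (1.16 ± 0.28, adjusted p = 0.0669, and 0.0202 with the block). Col14a1, a fibril-associated collagen, was at 1362, 1195, 927 and 1420 CPM, against 711, 556 and 588 CPM (0.99 ± 0.25, adjusted p = 0.0789). Spon1, a matrix protein of the thrombospondin type, was at 287, 307, 495 and 408 CPM in the positive gate and 451, 1018 and 860 CPM in the negative gate (-1.05 ± 0.27, adjusted p = 0.0753). The gates did not overlap for Fmod, Cilp2, Aspn and Col14a1, and none of the 5 passed the threshold. Leaving out a library brought some past it: positive F2 for Fmod and Cilp2, positive B4 for Aspn, Col14a1 and Spon1, and negative E4 for Spon1.

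**Figure D4:**
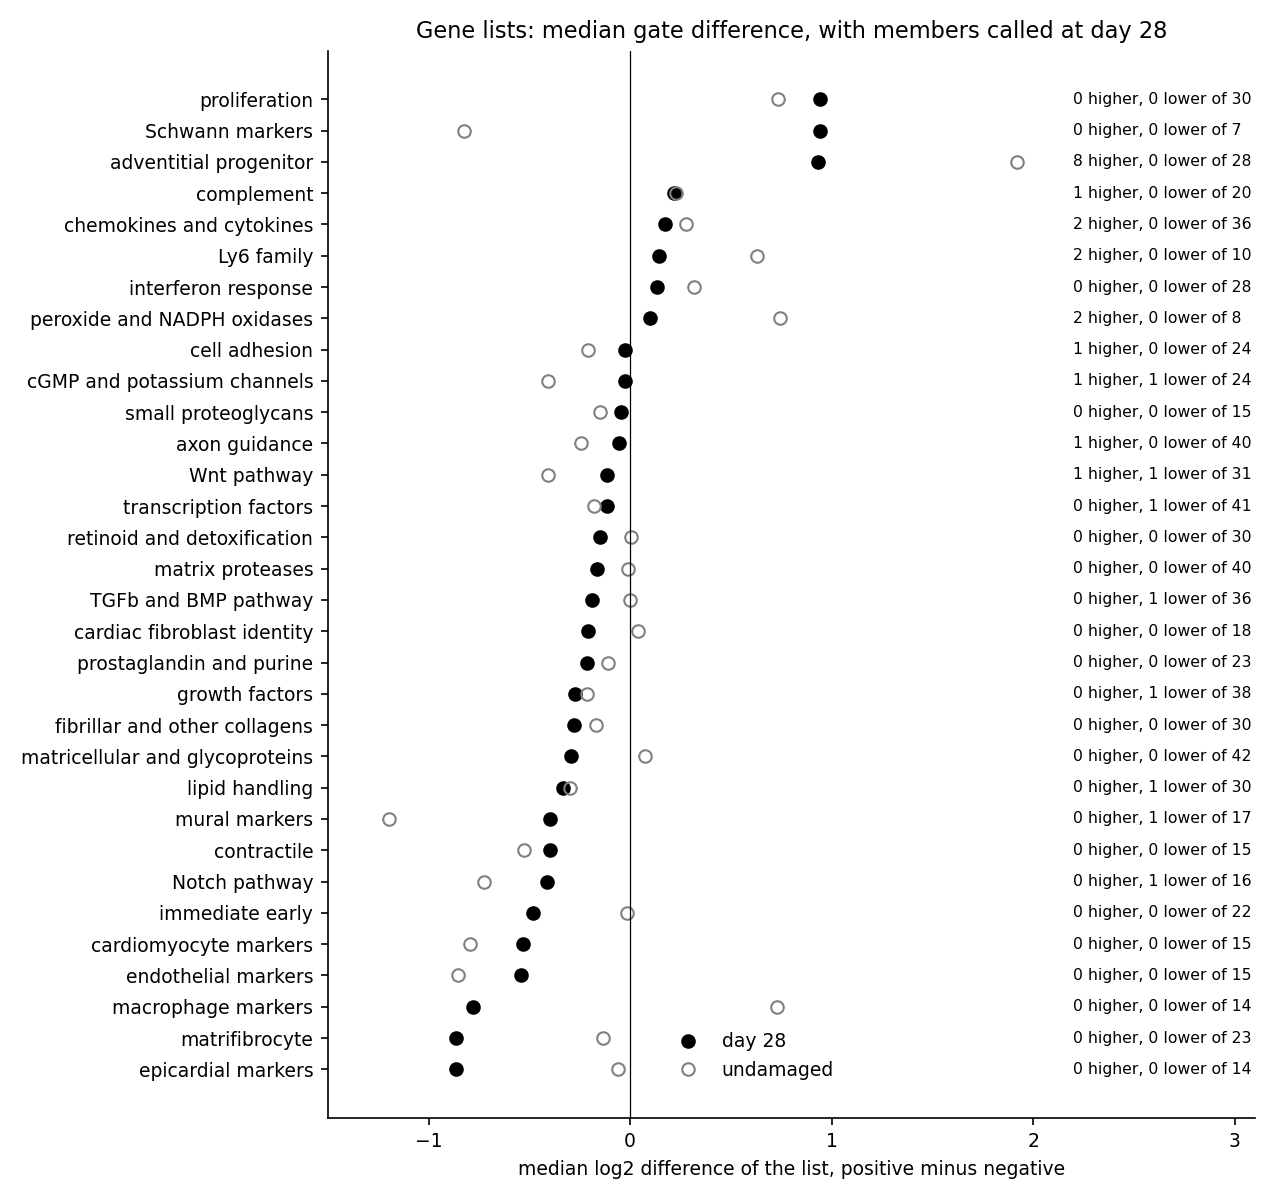
Median log2 difference, positive minus negative, of each gene list with at least 5 members tested, for day 28 (filled) and undamaged hearts (open), with the members called at day 28 written at the right. The adventitial list has 8 of 28 called higher at a day 28 median of 0.93, and the matrifibrocyte list none of 23 at -0.86.

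Other lists were free of calls or nearly so. For the counts of signs below, 48.8% of the differences of all genes tested lay above 0. No gene was called among 42 matricellular proteins and glycoproteins, 15 small proteoglycans, 40 matrix proteases, 23 prostaglandin and purine genes, 30 retinoid and detoxification genes, 28 interferon response genes or 14 epicardial markers. Of 22 immediate early genes, 19 were below 0 with a median of -0.48, and their sum was 16421 to 31764 CPM in the positive gate and 32090 to 41505 CPM in the negative gate. Fosb, one of them, was at 959, 1072, 3482 and 2155 CPM in the positive gate, against 1721, 6257 and 4509 CPM in the negative gate (adjusted p = 0.26), and was lower in the letter-coded than in the paired libraries of each gate. Of 30 proliferation genes, 24 were above 0 with a median of 0.94 and none was called. Top2a, the topoisomerase of dividing cells, was at 18.6, 1.15, 2.60 and 3.25 CPM in the positive gate, against 2.91, 0.722 and 0.0692 CPM in the negative gate, so E2 stood alone (adjusted p = 0.308). Markers of endothelium summed to 251 to 313 CPM in the positive gate and 204 to 298 CPM in the negative gate, while 12 of the 15 tested lay below 0 with a median of -0.54. The macrophage list gave 12.5 to 38.2 CPM and 21.2 to 71.6 CPM, the cardiomyocyte list 14.0 to 26.5 CPM and 20.5 to 52.2 CPM, and the Schwann cell list 36.5 to 124 CPM and 32.7 to 42.3 CPM, in the same order of gates. Of the macrophage genes 13 of 14 lay below 0 with a median of -0.78, and of the cardiomyocyte genes 13 of 15 with a median of -0.53. Of the Schwann cell genes 4 of 7 lay above 0 with a median of 0.94. None of these genes was called, and the part of these cells in the gate differences was not tested.

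In undamaged hearts the same contrast called 228 genes higher (1.65% of genes tested) and 200 lower (1.45%), and at day 14, with 2 libraries a gate, 7 higher (0.0507%) and none lower (0%). Of the genes called at day 28, 47 of the 60 higher and 18 of the 22 lower were also called in undamaged hearts, and all 82 had the same sign there and at day 14. A fit of the difference between the contrasts called no gene (0%) for day 28 against undamaged hearts and none (0%) for day 28 against day 14, with 719 and 184 genes at an unadjusted p under 0.05, against 690.6 expected of uniform p-values. DESeq2 called 4 and 2 genes in these, and limma-voom none.

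In undamaged hearts Sema3c averaged 225 ± 33.5 CPM in the positive gate and 24.1 ± 4.16 CPM in the negative gate (SD, n = 5 and 4). At day 14 it averaged 345 ± 146 and 71.0 ± 12.4 CPM (n = 2 each), and at day 28 246 ± 65.0 and 31.4 ± 6.88 CPM (n = 4 and 3). Dpp4, Ackr3, Tmem100, Duoxa1 and Cmah were, with Sema3c, called at all 3 times. Notch3 averaged 22.1 ± 4.38 CPM in the positive and 101 ± 41.8 CPM in the negative gate at day 28, against 32.4 ± 7.25 and 162 ± 68.9 CPM in undamaged hearts.

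The 17 genes called at day 28 and not in undamaged hearts were 13 higher and 4 lower ones. All of the 13 also lay above 0 in undamaged hearts, 9 of them differed by under 1 log2 at day 28, E2 was the highest positive library in 11, and 1 was still called without E2. After removal of the length trend 12 were called. None of the 17 had an adjusted p under 0.907 for the change in the gate difference, so a gate difference that differs between the times was not shown for any of them. By unadjusted p the largest shifts among called genes were in Grin3a, Islr2, Tmem98, Wnt10b and Cadm3, chosen here after their values were seen.

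Islr2 averaged 35.3 ± 8.47 CPM in the positive and 12.7 ± 3.83 CPM in the negative gate at day 28, against 37.2 ± 9.24 and 4.23 ± 1.29 CPM in undamaged hearts (change in the log2 gate difference -1.64 ± 0.41, unadjusted p = 0.000714). The 2 positive means were close to each other, and the negative mean was higher at day 28. Wnt10b averaged 11.9 ± 5.52 CPM in the positive and 1.27 ± 0.169 CPM in the negative gate at day 28, against 11.3 ± 3.80 and 0.193 ± 0.187 CPM in undamaged hearts (-2.64 ± 0.80, unadjusted p = 0.00372). Tmem98 averaged 43.6 ± 5.82 CPM in the positive and 82.5 ± 11.6 CPM in the negative gate at day 28, against 25.9 ± 4.10 and 27.1 ± 3.08 CPM in undamaged hearts (-0.85 ± 0.25, unadjusted p = 0.00281). Both of its means were higher at day 28, the negative one more so. None of these shifts passed the adjustment over all genes, at 0.907 or above.

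**Figure D5:**
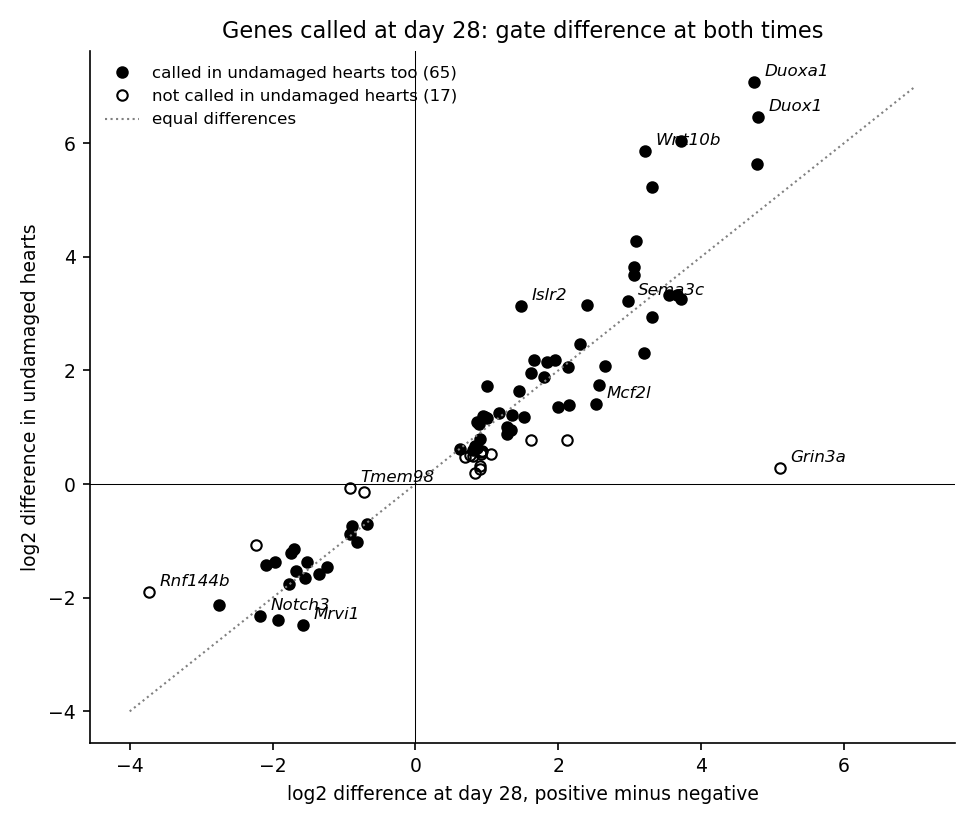
Log2 gate difference (positive minus negative) at day 28 (x) and in undamaged hearts (y) of the 82 genes called at day 28; filled dots were called in undamaged hearts too (65), open dots were not (17), and the dotted line marks equal differences. All dots lie in the lower left or upper right, and of the open dots Grin3a, at 5.11 and 0.28, and Rnf144b, at -3.73 and -1.90, lie farthest from 0 along the x axis.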

How the data were processed

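Levels were whole-number counts of reads per gene for each library, deposited by the authors without normalization for 24421 genes, with 2 further entries for reads outside genes and reads shared by genes, which stayed out of library sizes and tests. Reads shared by genes were 0.128% to 0.433% of the day 28 libraries. Libraries came from a stranded mRNA kit and paired ends, per the labels' protocols. The submitters' processing notes name bcl2fastq, STAR, TopHat, Bowtie2 and Cufflinks and the mm10 build. For the counting program, its annotation and its strand setting, the entry is: not given in the sources used here. Counts carry no molecular identifiers, so limits and intervals cover counting error only.

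The 20 libraries whose gate the labels give, in 6 groups of at least 2 (undamaged, day 14 and day 28), entered 1 fit with edgeR 4.0.16 in R 4.3.3: filterByExpr on the groups (13812 genes left), TMM scaling and the quasi-likelihood test, two-sided, with Benjamini-Hochberg adjustment over all genes tested and a threshold of 0.05. Day 7 was not used. Shared spread gave 14 residual degrees of freedom. Reported SE is the log2 difference divided by the root of F. Log2 differences inside a code pair used a pseudocount of 0.5 CPM. Alternatives included DESeq2 1.42.0, limma-voom 3.58.1, other filters and scaling, single libraries left out and replicate codes as a block. In edgeR's block fit each code had its own term, so the day 28 difference came from pairs B4 and B6 alone. Codes of the 7 pairs deviated together across genes (r of 0.184 to 0.412 between the gates, all over 0.1), and they were taken to pair the libraries. Pairs D1 and D9 of day 14 share the same r, since the deviations of 2 libraries from their mean mirror each other. No r between different codes is given for comparison, so pairing was assumed and not shown. The labels do not say what a code stands for. Symbols were looked up in GENCODE M21 (GRCm38), which held 95.7% of them. Scripts were tested on simulated data.

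All genes called were open to be named. Each of the 12 highest and 8 lowest by log2 difference with a mean log2 CPM of at least 3 is given by library. The rule also covers fixed anchors and up to 3 members of each of 35 lists with the smallest p, and of these list members only some are named. A few genes are not reported here. The members and lists were chosen with earlier results of these data known. The fits without E2 and F2 and with a length trend removed were added after seeing the data.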

Additional observations from a re-analysis of the deposited data

Results flagged for a closer look

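The 4 positive libraries were examined for one far from the other 3 in 104 measures (single genes, depth and reads outside genes), and 12 were found. Chance flags about 1 in 20 of independent, normally spread measures chosen blind. The genes here were those chosen for naming and share the same 4 libraries, so the 12 cannot be set against that rate. Positive E2 was the lowest for Msc, at 8.71 CPM against 15.4 to 16.6 CPM in the other 3, and for Mdk, at 10.5 CPM against 31.7 to 34.8 CPM. It was the highest for Fsd1l at 30.1 CPM, Arhgap20 at 23.6 CPM, Aspn at 2657 CPM and Top2a at 18.6 CPM. Positive F2 was the lowest for Cd55 at 259 CPM and Pno1 at 14.6 CPM, and the highest for Rab23 at 136 CPM and Cilp2 at 21.3 CPM. Of these 10 genes, 7 were called, and in each of the 7 the gates were apart in all libraries.

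Positive B6 stood alone for Ngfr, a neurotrophin receptor, at 38.8 CPM against 0.570 to 1.44 CPM in the other 3 positive and 0.794 to 1.80 CPM in the negative libraries. It also stood alone for Masp1, a protease that starts the lectin pathway of complement, at 62.0 CPM against 0.703 to 1.51 CPM and 1.52 to 2.74 CPM. Neither gene was called, and of the 7 Schwann cell markers tested, Ngfr included, 4 lay above 0 and 3 below, with 2 higher at an unadjusted p under 0.05 and none called. No cause was tested for any of these libraries.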

How the results depend on the processing

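In every one of the 20 other fits all called genes with a value kept their direction (81 or 82 of 82). These fits reused the same libraries, in which the gates did not overlap for any called gene. The kept direction was thus all but fixed in advance and is not separate evidence. Counts of genes called higher and lower were 281 and 123 with DESeq2, 19 and 13 with limma-voom, 33 and 9 from the 7 day 28 libraries alone, 21 and 4 from the prefixed libraries alone (codes B4 and B6 here), 20 and 4 from the letter-coded ones alone, and 127 and 63 with the replicate block as a random effect in limma-voom. With the replicate block in edgeR, which rests on pairs B4 and B6, 61 were higher and 38 lower, and 42 of the 82 calls remained. Single libraries left out gave 15 to 119 higher and 3 to 36 lower genes. Without E2 and F2, 42 were higher and 5 lower, and with the length trend removed 79 and 32. Other scaling and filters kept both counts within 1.5 times. The cause of these shifts was not tested.

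DESeq2 called 4 genes for the change since undamaged hearts and 2 for the change since day 14, where edgeR called none. The adventitial count was 15 with DESeq2, 3 with the letter-coded libraries alone and 6 to 8 with single libraries left out. With single libraries left out the difference of Ngfr, uncalled, ranged from -0.17 to 3.53 and that of Masp1 from -0.84 to 3.32, both lowest without positive B6, and that of Masp1 was -0.92 with the letter-coded libraries alone. Genes near 3 counts in a gate, such as Grin3a and Rnf144b, are limited by depth.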
